A study of Mus musculus with 2 samples.

Results

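The genes described here encode the pore-forming and accessory subunits of sodium and calcium channels, the HCN and sodium leak channels, and the TRPC, TRPM and TRPV cation channels. They were taken by symbol from the array maker's probe sets that the platform annotation pairs with 1 gene: Scn genes of alpha and beta subunits without Scn7a, Cacna, Cacnb and Cacng genes, Hcn genes, Nalcn, and Trpc, Trpm and Trpv genes. This gave 55 genes of 18193 in all, seen by 123 probe sets of 34945. The rule itself uses no measured value, but it was set with earlier results of these data known. RNA came from the hypothalamus of Crtc1 knockout mice and of wild-type mice, all males of 12 weeks that were fasted for 18 h and then fed again for 6 h. RNA of 3 mice was pooled per genotype and each pool was hybridised to 1 Affymetrix expression array, 2 in all. The pools are called KO and WT. Mouse strain, the design of the Crtc1 allele and any batch are not given in these sources.

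Voltage-gated sodium channels carry the upstroke of the action potential, and calcium channels turn the spike into transmitter release, bursting and calcium signals to the nucleus. HCN channels open on hyperpolarisation and are tuned by cyclic AMP, the sodium leak channel sets the resting potential, and TRP channels answer lipids, temperature, osmotic and receptor signals, among them leptin acting on hypothalamic neurons. Crtc1, a partner that boosts transcription by CREB, enters the nucleus when calcium and cyclic AMP rise, and calcium entry through L-type channels is a known trigger of that step.

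Values are linear probe-set signals in arbitrary units, scaled by the authors so that both arrays had the same trimmed mean. The median signal was 54.4 in the KO pool and 52.2 in the WT pool. The targeted gene read 85.1 in the KO pool against 631 in the WT pool by Crtc1 probe set 1434476_at (log2 difference -2.89), and 31.5 in KO against 209 in WT by 1458443_at (-2.73), although the sources used here do not say which part of the gene was altered. Signals under the 30th percentile of an array, 20.5 in the KO pool and 20.2 in the WT pool, were set to that floor. A probe set is called measured if its log2 signal, averaged over the arrays, reached the median of all probe sets. A gene with several measured probe sets takes the value of the brightest. Differences are KO minus WT, in log2 units. With 1 array per genotype there is no test, no p-value and no spread between mice. The only error is the array error, the SD of the difference between probe sets of the same gene, which was 0.32 below a mean log2 signal of 7 and declined with signal to 0.16 above 10. Of 10 hypothalamic marker genes 5 were measured, 3 higher and 2 lower in the KO pool. Avp read 1690 in KO and 1149 in WT (0.56, array error 0.16) and Oxt 969 in KO and 695 in WT (0.48, array error 0.21), while Otp, Pmch and Hcrt differed by 0.05, -0.07 and -0.11. In pooled tissue RNA, fewer cells of a type and less RNA per cell cannot be told apart.

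The channel genes differed little between the pools. Of the 55 genes 40 were measured, 23 of them higher and 17 lower in the KO pool, with a median log2 difference of 0.05 against 0.00 over all 11312 measured genes. Among all measured genes 50.9% were higher and 49.0% lower, and among the channel genes 57.5% were higher. Quantile and loess scaling also gave 23 higher and 17 lower. Dividing each array by its median, which lowers every difference alike and puts the median of all genes at -0.06, gave 18 higher and 22 lower. At 1.5-fold, 2 of the 40 stood apart between the pools, against 3.50% of all measured genes. Cacng8 was the 1 gene higher, against 2.06% of all, and Trpc7 the 1 gene lower, against 1.44% of all. The Cacng8 value came from a probe set that was called measured only through its KO reading. At 1.2-fold, 6 channel genes were higher (Cacng8, Cacna1d, Trpc5, Trpc1, Cacng7 and Scn3a), where 11.9% of all genes were. Another 7 were lower (Trpc7, Trpv2, Cacnb2, Trpm3, Cacna1g, Cacng4 and Hcn3), where 9.97% of all genes were.

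Within this narrow range the channel genes lay somewhat further from 0 than other genes. Of the 40 measured genes 27 (67.5%) were within 1.2-fold, against 78.1% of all measured genes, and the median size of the difference was 0.17 against 0.13. In 16 of the 40 genes (40.0%) the difference was larger than the array error, against 25.2% of all. Of these 16, 9 were higher, against 13.0% of all genes, and 7 were lower, against 12.2% of all. These shares describe the 2 arrays and were not tested.

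**Figure D1:**
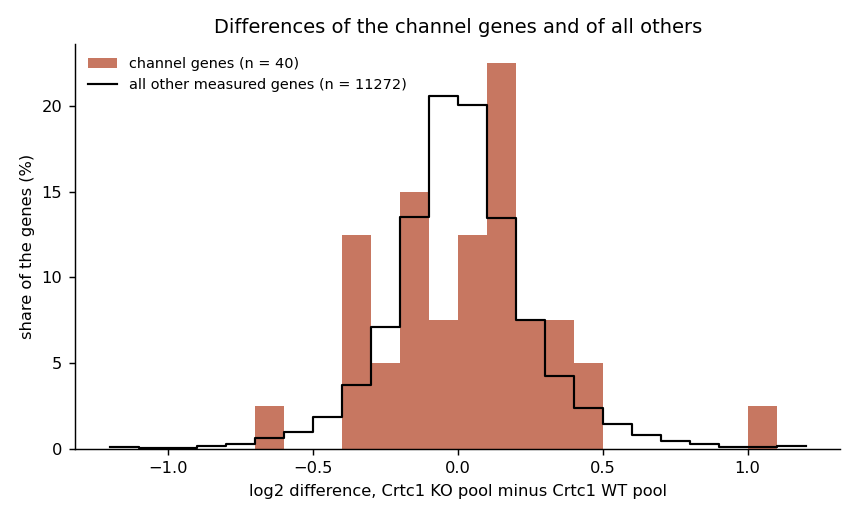
Share of genes, in percent, by log2 difference between the Crtc1 KO pool and the Crtc1 WT pool, in bins of 0.1, for the 40 measured channel genes (bars) and the 11272 other measured genes (line), with values beyond the axis counted in the end bins. The channel genes run from -0.63 (Trpc7) to 1.02 (Cacng8), and 67.5% of them lie within 1.2-fold.

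The 2 genes past 1.5-fold were both dim. Cacng8 encodes an AMPA receptor auxiliary subunit (a TARP) abundant in hippocampus, named for its likeness to the gamma subunit of the muscle calcium channel. Its probe set 1451864_at read 91.9 in the KO pool and 45.3 in the WT pool, 2.03-fold higher (1.02, array error 0.32). The WT reading of 1451864_at was under the WT array median of 52.2. This probe set was called measured, and was on average the brighter of the 2 measured for Cacng8, only through its KO reading. The other measured Cacng8 probe set, 1459579_at, read 65.3 in KO and 59.4 in WT, a difference of 0.14. The mean of both was 0.58, under 1.5-fold, so the size of the difference rests on 1 probe set. Trpc7 encodes a receptor-operated channel opened by diacylglycerol. Its single probe set read 78.6 in the KO pool and 121 in the WT pool, 1.54-fold lower (-0.63, array error 0.32). With a pseudocount of 16 in place of the floor Trpc7 was at -0.54, under 1.5-fold.

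Promoter windows of 4 genes are printed because Crtc1 acts through CREB, whose consensus binding site is the cyclic AMP response element. They are the 2 genes past 1.5-fold, and Trpc1 and Cacnb2, at 1.30-fold higher and 1.29-fold lower. Trpc1 and Cacnb2 were beyond the array error by their brightest probe sets, and each has a window that holds a 6-letter form of that element. They were picked for having both, so they show no link between the 2. The mean of the measured Cacnb2 probe sets was only -0.10. Trpc2, whose window also holds the 6-letter form, is not printed and was within its array error (0.13, array error 0.32). Each run is 300 bases of RefSeq sequence (GRCm38.p6), 5′ to 3′ on the strand of the gene, and capitals mark TGACG, the shortest form searched, or its reverse complement.
Cacng8: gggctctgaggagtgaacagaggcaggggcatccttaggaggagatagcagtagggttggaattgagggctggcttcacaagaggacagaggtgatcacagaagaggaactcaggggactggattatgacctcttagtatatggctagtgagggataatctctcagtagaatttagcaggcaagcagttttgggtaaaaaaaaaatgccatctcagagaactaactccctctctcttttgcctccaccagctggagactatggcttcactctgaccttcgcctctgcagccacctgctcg
Trpc7: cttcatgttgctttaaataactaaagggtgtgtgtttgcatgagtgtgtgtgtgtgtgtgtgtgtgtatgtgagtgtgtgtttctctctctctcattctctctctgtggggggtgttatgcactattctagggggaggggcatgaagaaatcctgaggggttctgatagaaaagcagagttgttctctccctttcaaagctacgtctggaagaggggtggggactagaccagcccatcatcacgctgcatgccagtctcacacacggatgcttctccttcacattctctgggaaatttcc
Trpc1: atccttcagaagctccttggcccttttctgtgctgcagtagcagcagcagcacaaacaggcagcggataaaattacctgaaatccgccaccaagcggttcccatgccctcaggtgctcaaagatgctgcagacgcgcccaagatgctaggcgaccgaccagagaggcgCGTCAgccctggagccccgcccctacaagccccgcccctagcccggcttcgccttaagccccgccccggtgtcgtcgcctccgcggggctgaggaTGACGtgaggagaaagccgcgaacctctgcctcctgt
Cacnb2: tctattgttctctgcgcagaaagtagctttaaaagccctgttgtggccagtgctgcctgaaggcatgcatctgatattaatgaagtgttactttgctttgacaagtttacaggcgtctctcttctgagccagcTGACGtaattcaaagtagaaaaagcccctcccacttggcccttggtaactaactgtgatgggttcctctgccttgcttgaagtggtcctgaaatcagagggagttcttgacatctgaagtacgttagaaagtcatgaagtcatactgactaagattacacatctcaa

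The Cacng8 window lies at chr7:3393792-3394091 on the + strand and that of Trpc7 at chr13:56895740-56896039 on the - strand. The Trpc1 window lies at chr9:95750299-95750598 on the - strand, and the Cacnb2 window, 1 of 2 starts of that gene in the table, at chr2:14823842-14824141 on the + strand. The windows of Cacng8 and Trpc7 hold no TGACG on either strand, the printed Cacnb2 window holds 1 and that of Trpc1 holds 2. The window of the other Cacnb2 start, not printed, holds none. Of the 55 genes 45 had a window in the table. The full element TGACGTCA was in 0 of these 45, against 2.03% of 27025 genes with a window. The 6-letter form TGACGT, read on both strands, was in 3 (6.67%), Cacnb2, Trpc1 and Trpc2, against 8.37% of all. The shorter TGACG, which every longer form contains, was in 11 (24.4%), against 23.0% of all. Of those 11 genes 8 were measured, 5 higher and 3 lower, with a median difference of 0.04. The 24 measured genes whose windows lack it had 14 higher and 10 lower and a median of 0.08. A match is a run of letters and not a shown binding site, and a window without a match says nothing of sites elsewhere.

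Most measured sodium channel genes read slightly higher in the KO pool. Of the 10 genes 7 were measured, 6 higher and 1 lower, with a median of 0.17, and Scn3a was the 1 gene past 1.2-fold. Among all measured genes 50.9% were higher. Quantile and loess scaling gave 6 higher and 1 lower. With each array divided by its median the count was 5 higher and 2 lower (median 0.11), and with probe sets averaged it was also 5 and 2 (median 0.21). With no filter on dim probe sets the 10 genes were 7 higher and 3 lower, and the median fell to 0.07. The neuronal markers on the same arrays were 3 higher and 7 lower, with a median of -0.02 over 10 genes and a summed signal of 35780 in the KO pool and 35956 in the WT pool. The part of cell composition in the sodium channel values was not tested.

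Among the pore-forming alpha subunits, Scn2a, which drives spikes in the axons of excitatory neurons, read 2036 in the KO pool and 1757 in the WT pool (0.21, array error 0.16). Its other measured probe sets differed by -0.01, 0.15 and 0.48. The last, at 63.9 in KO and 45.9 in WT, was called measured only through its KO reading. Scn3a, the alpha subunit best known from the fetal brain, read 214 in KO and 173 in WT (0.31, array error 0.26). Both genes were beyond the array error, and Scn3a rested on 1 measured probe set. Scn8a, whose channel gathers at the axon initial segment and the nodes of Ranvier, read 1686 in the KO pool and 1563 in the WT pool (0.11, array error 0.16). Its 3 other measured probe sets were lower, down to -0.29, and the mean of the 4 was -0.07, so the gene had no settled direction. Scn1a, the main alpha subunit of many fast-spiking inhibitory neurons, read 840 in KO and 917 in WT (-0.13, array error 0.21), with a second probe set at 0.05. Scn9a, Scn10a and Scn11a, alpha subunits best known from peripheral sensory neurons, were not measured. The brightest Scn9a probe set read 30.1 in KO and 31.3 in WT, above the floor in both pools.

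All 3 sodium channel beta subunits were measured, proteins that hold the channel at the membrane and shift its gating. Scn4b, linked to resurgent current, read 746 in the KO pool and 635 in the WT pool (0.23, array error 0.21). Scn3b read 1215 in KO and 1080 in WT (0.17, array error 0.16), with a second probe set at -0.04. These 2 differences were just beyond the array error. Scn2b was the sodium channel gene whose probe sets disagreed most in size. Its probe set of highest mean signal, 1436134_at, read 1619 in the KO pool and 1595 in the WT pool (0.02), a difference that turned to -0.04 with each array divided by its median. Probe set 1430648_at read 1636 in KO and 1187 in WT (0.46), and the dim 1457144_at read 149 in KO and 83.7 in WT (0.83). All 3 were thus higher in the KO pool, with a mean of 0.44, and the size depended on which reading was taken. Scn2b and Scn4b are neighbours on chromosome 9, and Scn2a and Scn3a on chromosome 2.

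**Figure D2:**
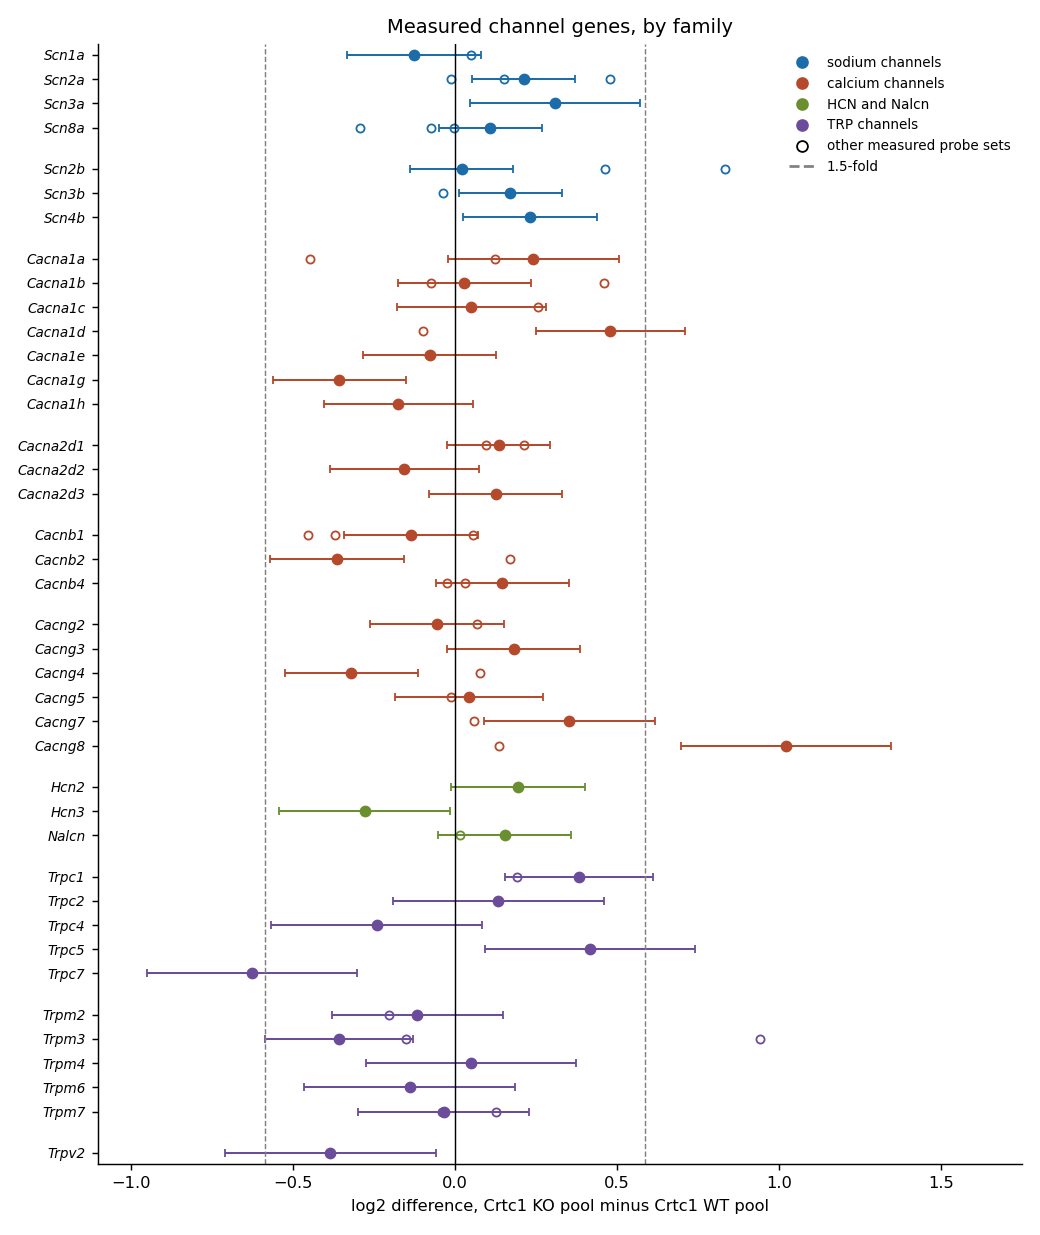
Log2 difference, Crtc1 KO pool minus Crtc1 WT pool, of the 40 measured channel genes by family. Filled points are the gene values with the array error as a bar, open points the other measured probe sets of the gene, and dashed lines mark 1.5-fold. Cacng8 lies beyond the upper line at 1.02 and Trpc7 beyond the lower at -0.63.

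Calcium channel genes read both higher and lower. Of the 24 genes 19 were measured, 11 higher and 8 lower, with a median of 0.04, where 50.9% of all measured genes were higher. Quantile and loess scaling gave the same counts. Dividing each array by its median, with the same shift of all genes, gave 8 higher and 11 lower. Among the alpha1 subunits, which form the pore, 7 of 9 were measured, 4 higher and 3 lower.

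The L-type channel Cacna1d opens at low voltages and supports pacemaking. By 1427974_s_at it read 306 in the KO pool and 219 in the WT pool, 1.39-fold higher (0.48, array error 0.23). A second Cacna1d probe set read 147 in KO and 158 in WT (-0.10), so its probe sets had opposite signs and their mean was 0.19. Cacna1c, the other L-type subunit of brain, read 376 in the KO pool and 363 in the WT pool (0.05), with a second probe set at 0.26. The Cacna1c value was -0.01 with each array divided by its median, within its array error of 0.23 in either case.

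T-type channels give low-threshold bursts. Cacna1g read 522 in the KO pool and 669 in the WT pool, 1.28-fold lower (-0.36, array error 0.21, 1 probe set). Cacna1h read 327 in KO and 369 in WT (-0.17, array error 0.23). The difference of Cacna1g was beyond its array error and that of Cacna1h was not. Cacna1g is abundant in thalamus. The 8 thalamus markers, all measured, had 5 higher and 3 lower, with a median of 0.06 and a range from -0.19 to 0.23. Their summed signal was 10096 in the KO pool and 10174 in the WT pool. The part of tissue composition in the Cacna1g value was not tested.

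The remaining alpha1 subunits form the channels of transmitter release. Cacna1a, the P/Q-type pore, read 185 in the KO pool and 156 in the WT pool (0.24, array error 0.26), but its probe set 1450510_a_at read 95.7 in KO and 131 in WT (-0.45) and the mean of its 3 was -0.03. Cacna1a is the member on chromosome 8, which also carries Crtc1, and lies 160 protein-coding genes from it. Cacna1b, the N-type pore, read 701 in the KO pool and 687 in the WT pool (0.03), turned to -0.03 with each array divided by its median, and had 1 of 4 probe sets at 0.46. Cacna1e, the R-type pore, read 847 in KO and 893 in WT (-0.08), and its second probe set gave the same -0.08. None of these 3 genes was beyond the array error.

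The alpha2delta subunits, which bring calcium channels to the surface and include the gabapentin targets Cacna2d1 and Cacna2d2, had 3 of 4 genes measured, all within 1.2-fold by their brightest probe sets. Cacna2d1 read 1855 in the KO pool and 1689 in the WT pool (0.14, array error 0.16), and its 3 measured probe sets were all higher, from 0.09 to 0.21. Cacna2d2 read 428 in KO and 476 in WT (-0.16), and Cacna2d3 read 970 in KO and 889 in WT (0.13), both within the array error. A dim Cacna2d2 probe set, 1451955_a_at, read 34.9 in KO and 68.3 in WT and was too low on average to be called measured.

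Of the cytoplasmic beta subunits, which traffic the pore and set its kinetics, Cacnb2 read 534 in the KO pool and 687 in the WT pool, 1.29-fold lower (-0.36, array error 0.21). Its second measured probe set read 235 in KO and 209 in WT (0.17, array error 0.26), and the mean of both was -0.10. Cacnb1 read 543 in the KO pool and 596 in the WT pool (-0.14, array error 0.21). Of its 4 probe sets 3 were lower, down to -0.45, and their mean was -0.23. Cacnb4 read 713 in KO and 645 in WT (0.15), with the others at 0.03 and -0.02.

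Of the families, gamma held the widest range, 6 of 8 genes measured from -0.32 to 1.02, 4 higher and 2 lower. Most brain members are TARPs, which deliver AMPA receptors to synapses and slow their closing. Next to Cacng8 on chromosome 7, Cacng7 read 280 in the KO pool and 219 in the WT pool, 1.28-fold higher (0.35, array error 0.26), and its second probe set gave 0.06. Cacng4 read 595 in KO and 742 in WT (-0.32, array error 0.21), with a second probe set at 0.08. Cacng3 read 729 in KO and 643 in WT (0.18, array error 0.21). Cacng7 and Cacng4 were beyond the array error by their brighter probe sets and close to 0 by the others. Cacng2, which encodes stargazin, differed by -0.06 and 0.07 by its measured probe sets and Cacng5 by 0.04 and -0.01. The remaining Cacng2 probe set, 1453363_at, read 20.1 in the KO pool, under the floor, and 124 in the WT pool, but its average was too low for it to be called measured. Cacng8 and Cacng3 are rich in cortex and hippocampus. Of the 7 measured markers of those regions 5 were higher and 2 lower, with a median of 0.18 and a summed signal of 3942 in the KO pool and 3553 in the WT pool, and their part in the Cacng8 value was not tested.

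**Figure D3:**
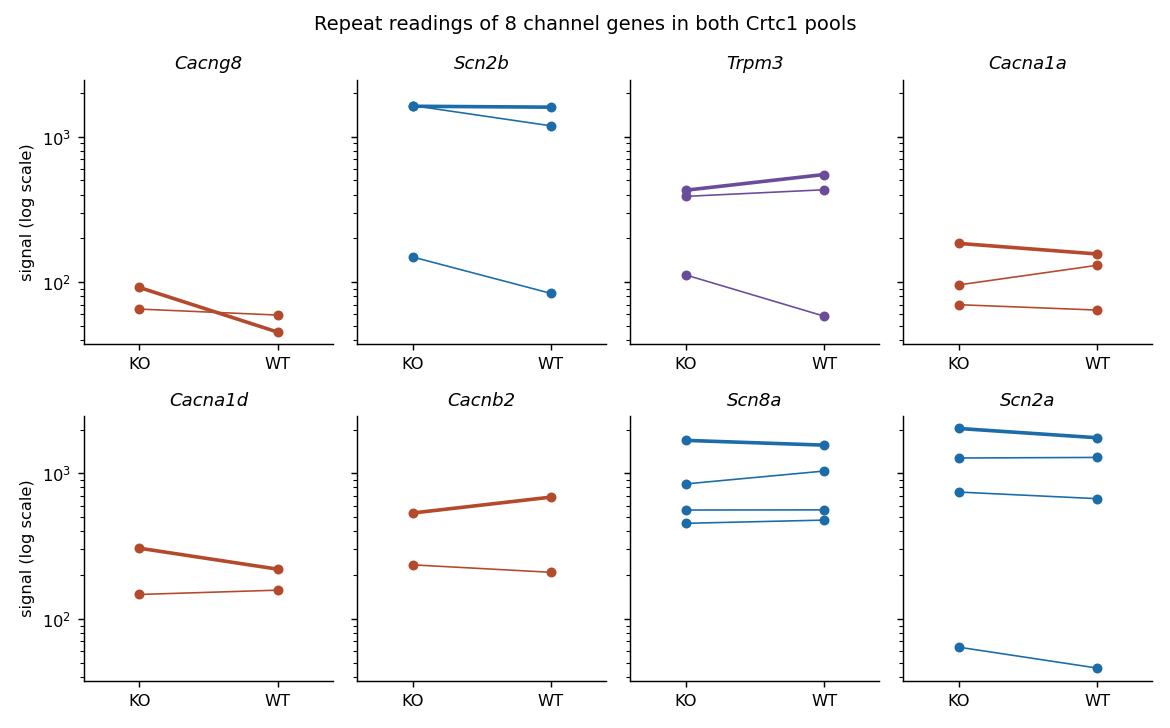
Signal (log scale) of each measured probe set of 8 channel genes in the Crtc1 KO pool and the Crtc1 WT pool, with a line joining the 2 readings of a probe set and the thick line the one used as the gene value. All 3 lines of Scn2b are higher in KO, while lines of Trpm3, Cacna1a, Cacna1d, Cacnb2, Scn8a and Scn2a run both ways.

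Repeat readings of a channel gene often disagreed in sign. Of the 24 genes with at least 2 measured probe sets, 9 had all of them on the same side of 0 and 15 had both signs, a share of 37.5% on the same side against 42.5% of all 5199 such genes. The 9 were Scn2b, Cacna1c, Cacna1e, Cacna2d1, Cacng7, Cacng8, Nalcn, Trpc1 and Trpm2. The other 16 measured genes had 1 measured probe set each.

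Pacemaker and leak channels differed by at most 1.21-fold. Hcn2, a cyclic AMP sensitive HCN channel of brain, read 668 in the KO pool and 584 in the WT pool (0.19, array error 0.21). Hcn3, a member little moved by cyclic AMP, read 158 in KO and 191 in WT (-0.28, array error 0.26). Nalcn, the sodium leak channel that depolarises resting neurons, read 897 in KO and 806 in WT (0.15, array error 0.21), with a second probe set at 0.01. Of these, Hcn3 alone was beyond its array error, and only just.

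By their brightest probe sets more of the measured TRP genes read lower than higher, and the TRPC group was split. Of the 18 genes 11 were measured, 4 higher and 7 lower, with a median of -0.12, where 49.0% of all measured genes were lower. With probe sets averaged the count was 6 higher and 5 lower and the median 0.02, so this split depended on how probe sets were combined. With no filter on dim probe sets the 18 genes were 9 higher and 9 lower (median -0.01). That count includes genes at the floor in both pools, whose values show only the difference between the floors.

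In the TRPC group, whose channels open downstream of phospholipase C, 5 of 6 genes were measured. Trpc1, which joins other TRPC subunits in mixed channels, read 402 in the KO pool and 308 in the WT pool, 1.30-fold higher (0.38, array error 0.23), and its second probe set was also higher at 0.19. Trpc5, a channel through which leptin excites proopiomelanocortin neurons, read 73.2 in KO and 54.8 in WT, 1.34-fold higher (0.42, array error 0.32, 1 probe set). Trpc4, its closest relative, read 113 in the KO pool and 134 in the WT pool (-0.24, array error 0.32). Trpc1 and Trpc5 were beyond the array error and Trpc4 was not. Of the 2 probe sets of Trpc4 under the limit, the brighter read 46.7 in KO and 56.7 in WT, also lower in the KO pool. Trpc2, the pheromone transduction channel of the rodent vomeronasal organ, read 83.3 in KO and 75.9 in WT (0.13). Trpc7, described above, was the lowest of the group.

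In the TRPM group 5 of 8 genes were measured, 1 higher and 4 lower, where 49.0% of all measured genes were lower. Trpm3, a heat and neurosteroid gated channel that is also abundant in choroid plexus, read 428 in the KO pool and 549 in the WT pool by 1456633_at, 1.28-fold lower (-0.36, array error 0.23). Probe set 1439026_at read 389 in KO and 432 in WT (-0.15). The dimmer 1456923_at read 112 in KO and 58.4 in WT, higher by 0.94, so Trpm3 had readings of both signs and a mean of 0.14. Of 9 measured choroid plexus markers 8 were lower and 1 higher, with a median of -0.31 and a summed signal of 9457 in the KO pool and 10651 in the WT pool, none of them at the floor, and their part in the Trpm3 value was not tested.

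Trpm2, a channel gated by ADP-ribose that takes part in heat sensing by preoptic neurons and is also made by microglia, read 239 in the KO pool and 259 in the WT pool (-0.12), and its second probe set read 84.9 in KO and 97.7 in WT (-0.20), both within the array error. The 9 microglia markers, all measured, were 7 higher and 2 lower, with a median of 0.23 and a summed signal of 4690 in the KO pool and 4117 in the WT pool. Their part in the Trpm2 value was not tested. Trpm6 and Trpm7, magnesium-permeable channels fused to a kinase, differed by -0.14 and -0.03. Trpm4, a calcium-activated channel for sodium and potassium, differed by 0.05 and turned to -0.01 with each array divided by its median. In the TRPV group Trpv2 alone was measured, at 88.6 in the KO pool and 116 in the WT pool, 1.30-fold lower (-0.38, array error 0.32, 1 probe set).

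The 15 genes that were not measured were mostly channels best known from other tissues, and a dim reading does not show that they are absent here. Besides the 3 sensory sodium channel genes they were Cacna1s, Cacng1 and Cacng6 (muscle type), Cacna1f, Cacna2d4 and Trpm1 (retina), Trpm5 (taste cells), Trpm8 and Trpv1 (sensory nerve endings), Trpv4 (osmotic sensing), Trpv6 (calcium uptake in epithelia) and Trpc6. For 5 of them, Scn10a, Trpm1, Trpm5, Trpm8 and Trpv1, every probe set was at or under the floor in both pools. The striated muscle markers were higher in all 5 measured of 10, with a summed signal of 1000 in the KO pool and 525 in the WT pool. Their part in the channel values was not tested. Cacna1s read 26.6 in KO and 27.5 in WT and Cacng1 24.3 in KO and 26.4 in WT, too close to the floor to bear on it. Trpv4 read 11.2 in the KO pool and 25.2 in the WT pool, Trpv6 22.6 in KO and 46.5 in WT, and Trpc6 31.3 in KO and 0.9 in WT. A Cacna2d4 probe set read 27.8 in KO and 61.6 in WT and another 37.5 in KO and 21.3 in WT. No fold is given for signals this close to the floor.

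**Figure D4:**
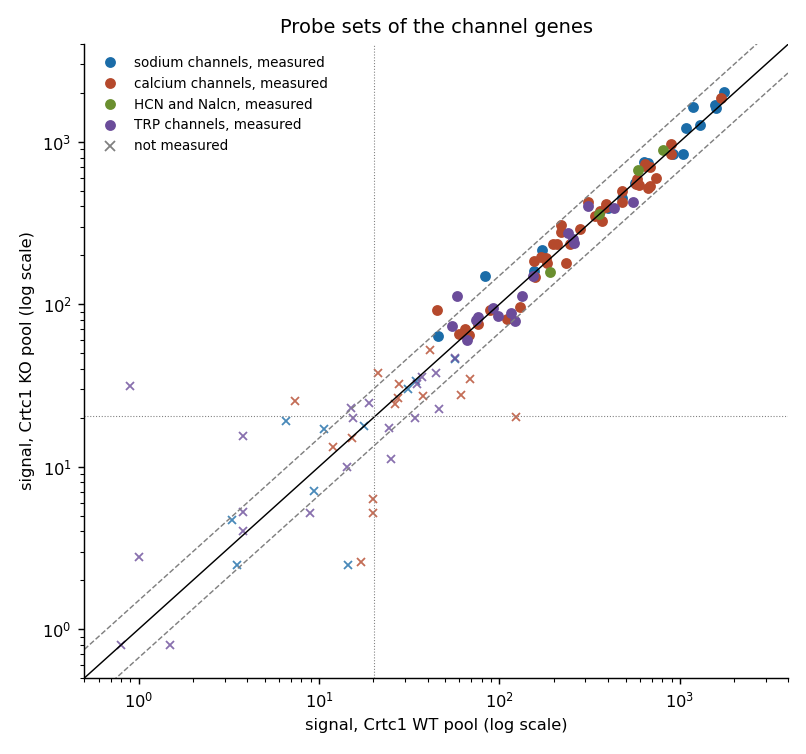
Signal of all 123 probe sets of the channel genes in the Crtc1 KO pool (vertical) and the Crtc1 WT pool (horizontal), both on log scales, with equality as a solid line, 1.5-fold as dashed lines and the floors of 20.5 and 20.2 as dotted lines. The 78 measured probe sets (dots) follow the solid line and the 45 others (crosses) scatter widely.

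At the level of probe sets, 78 of 123 were measured, all above the floor in both pools. Of the 78, 3 were higher in KO by 1.5-fold or more, those of Cacng8, Scn2b and Trpm3, against 2.65% of all measured probe sets with 1 gene. That of Trpc7 was the 1 lower, against 1.79%. Of the 45 not measured, 21 were at the floor in both pools and 8 in 1 pool.

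Values are also given for 48 genes of proteins that anchor, gate or regulate these channels, or that are other channels, such as Ryr3 and Mcoln1. All are called partner genes here. Of these partner genes 31 were measured, 18 higher and 13 lower, with a median of 0.04, where 50.9% of all measured genes were higher. None passed 1.5-fold, against 3.50% of all measured genes, and 24 (77.4%) were within 1.2-fold, against 78.1% of all. Ryr3, a ryanodine receptor that releases stored calcium, read 514 in the KO pool and 373 in the WT pool (0.46, array error 0.23). S100a10, which carries TRPV and sodium channels to the membrane, read 414 in KO and 305 in WT (0.44, array error 0.23). Fgf14, an intracellular modulator of sodium channels, read 320 in KO and 247 in WT (0.38, array error 0.23). Ryr1 followed at 0.30 (array error 0.32). These 4 were the partner genes at least 1.2-fold higher, where 11.9% of all genes were. At least 1.2-fold lower, where 9.97% of all genes were, stood the lysosomal channel gene Mcoln1 at -0.30 (array error 0.21), which is also on chromosome 8, Fgf11 at -0.29 and the kinase gene Camk2a at -0.28. Unc80, a subunit of the sodium leak channel complex, differed by 0.11, and Pex5l, a partner of HCN channels, by -0.19.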

How the data were processed

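RNA pools of 3 mice per genotype were hybridised to 1 array each, per the series design text. Per the labels' protocols, RNA was extracted with Trizol and biotin-labelled cRNA was made from 30 ug. The deposited values are linear signal intensities, scaled by the authors to a common trimmed mean, as the values show. How probes were summarised is not given in these sources. Probes that bind other transcripts, or lie over a DNA variant, can shift a signal with no difference in the transcript.

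Of 45037 probe sets without controls, 34945 were paired with 1 gene by GEO's platform annotation, with symbols updated through RefSeq (GRCm38.p6). Another 2 probe sets, paired with a channel gene and a further gene, were left out. Processing used Python 3.11.15, pandas 2.3.3 and statsmodels 0.14.6, and was tested on simulated data. The groups have 1 array each, whose number limits the precision. Named genes were those past 1.5-fold, up to 4 of largest difference per family, members with textbook roles in neurons and those with probe sets of opposite sign, plus the partner genes of largest difference. Other genes were named for context after their values were seen. The genes and lists were chosen with earlier results of these data known. The 10 alternatives varied scaling, floor, filter and the choice of probe sets.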

Additional observations from a re-analysis of the deposited data

How the results depend on the processing

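Of 389 values of single channel genes under the 10 alternatives, 382 moved by no more than the array error. The other 7 all came from averaging the measured probe sets, in Cacna1a, Cacna1d, Cacnb2, Cacng8, Scn2b, Scn8a and Trpm3. Most alternatives could move a value only a little, so the count of 382 is no measure of robustness. Dividing by the median shifted every difference by 0.0596, less than the smallest array error of 0.1586. Changes of floor or filter left nearly all values as they were. Averaging could not move the 16 genes with 1 measured probe set. No gene past 1.5-fold changed sign. Of the 40 measured genes 30 kept their sign in every alternative that measured them. With each array divided by its median the median difference of the channel genes was -0.0135, against 0.05 as reported. The count at least 1.5-fold higher was 2 with no filter on dim probe sets (Cacng8 and Trpc6), where 3.95% of all genes were. It was 0 with a filter at the 70th percentile, where 0.599% of all genes were, and 0 with probe sets averaged, where 1.85% were. The count at least 1.5-fold lower was 3 with no filter (Trpc7, Cacna2d4 and Trpv6), where 3.20% of all genes were. It was 0 with a filter at the 70th percentile, where 0.574% were, and 0 with a pseudocount of 16, where 0.849% were. The stricter filter leaves 32 channel genes and removes Cacng8 and Trpc7, since both are dim. No paired analysis was possible because each genotype is 1 pooled array. Signal over background limits the 15 genes that were not measured.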
